A study of Taeniopygia guttata with 23 samples.

Results

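The regions described here are short stretches of chromatin in the zebra finch auditory forebrain that carried H3K27me3 and H3K9me3 at once, and they are called double-marked regions. H3K27me3 islands, the enriched intervals deposited for each library, were merged over the 4 libraries of day 67 where they overlapped or touched. A merged region was kept if it was under 20 kb, had an H3K27me3 island in all 4 libraries and was overlapped by an H3K9me3 island in all 4 day 67 libraries of that mark. This left 3178 regions of 30711 merged H3K27me3 regions, or of the 14211 that had an island in all 4 libraries. Among the 12827 of these under 20 kb, 24.8% were double-marked. The comparison is mostly with the 5146 short H3K27me3 regions that had no H3K9me3 island in any day 67 library. The remaining 4503 short regions had H3K9me3 in 1 to 3 libraries.

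H3K27me3 is written by Polycomb repressive complex 2 and is found at silent genes that many cell types keep ready for use, such as developmental regulators. H3K9me3 is written by another set of methyltransferases and bound by heterochromatin proteins, and is best known from repeats and gene-poor chromatin. Both go with silencing, and they are usually described as separate compartments. The libraries were made from pieces of tissue, so cover by both marks does not tell whether the marks sat in the same cells or on the same copy of a chromosome, and fewer cells with a mark and less of the mark per cell cannot be told apart.

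All birds were males. Tutored birds were kept from day 21 with 1 adult male and 1 adult female, Isolate birds from day 21 with 2 adult females and no adult male, and both were sampled at day 67. P32 birds came from the home aviary at day 32, so age and housing cannot be told apart between day 32 and day 67. H3K27me3, H3K9me3, the promoter mark H3K4me3 and RNA polymerase II (Pol II) were each profiled in 2 Tutored, 2 Isolate and 1 P32 library. The Tutored and Isolate libraries together are called P67.

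Reads inside islands numbered 5671633 to 8412117 per H3K27me3 library and 1551076 to 2133615 per H3K9me3 library. They numbered 4286003 to 11303863 for H3K4me3 and 1579718 to 3780427 for Pol II. Replicate 1 islands covered more bases than replicate 2 islands for both repressive marks in both groups, 143.7 and 151 Mb against 116 and 119 Mb for H3K27me3. The Tutored replicate 2 Pol II list was the shortest, with 8589 islands against 15198 to 19656 in the other P67 lists. Whether replicates were separate birds is not stated in the labels. The p-values below therefore rest on the spread between libraries, which may be technical.

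Double-marked regions had a median length of 9.2 kb (quartiles 6.2 and 13.2 kb) and together spanned 31.3 Mb. Since the rule asked only for an overlap of 1 bp, the extent of the overlap was measured in each library. H3K27me3 covered a median of 92.3% and 75% of a region in Tutored replicates 1 and 2, 89.7% and 78.3% in Isolate, and 70.2% in P32. H3K9me3 covered 61.8% and 46.4% in Tutored, 61.5% and 48.3% in Isolate, and 31.5% in P32. The share under both marks was 55.2% and 39.5% in Tutored and 53.8% and 40.7% in Isolate, or 47.3% ± 8.37 over the P67 libraries (SD, n = 4), and 21.1% in P32, where a mark without an island counts as 0. The rule asked for both marks in P67 alone, which by itself favours lower P32 values. The replicates of a group lay further apart than the groups did. The share of H3K27me3-covered windows that also lay under H3K9me3 varied less, at 64.5% ± 2.18 over the P67 libraries. In P32 it was 53.7%, over only the 2594 regions with an H3K27me3 island there.

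The regions are by construction the joined H3K27me3 islands, and H3K9me3 was counted within their edges, which favours H3K27me3 in any comparison of cover. It covered more of the region than H3K9me3 in all 4 P67 libraries in 1641 regions (51.6%), and H3K9me3 covered more in all 4 in 47 (1.48%). In 1695 regions (53.3%) no H3K9me3 island of P67 ran past an edge, so that H3K9me3 lay within the region, while in 241 (7.58%) it ran past an edge in all 4. Averaged over the libraries, 1466 regions (46.1%) lay under both marks for at least 50% of their length. In 215 regions (6.77%) the marks shared no window in at least 1 library. The shorter the region, the larger the shared part. Its median was 67.0% in the 468 regions under 5 kb, 50% in the 1257 from 5 to 10 kb, and 39.8% in the 1453 from 10 to 20 kb. A single island fills more of a shorter region by length alone.

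**Figure D1:**
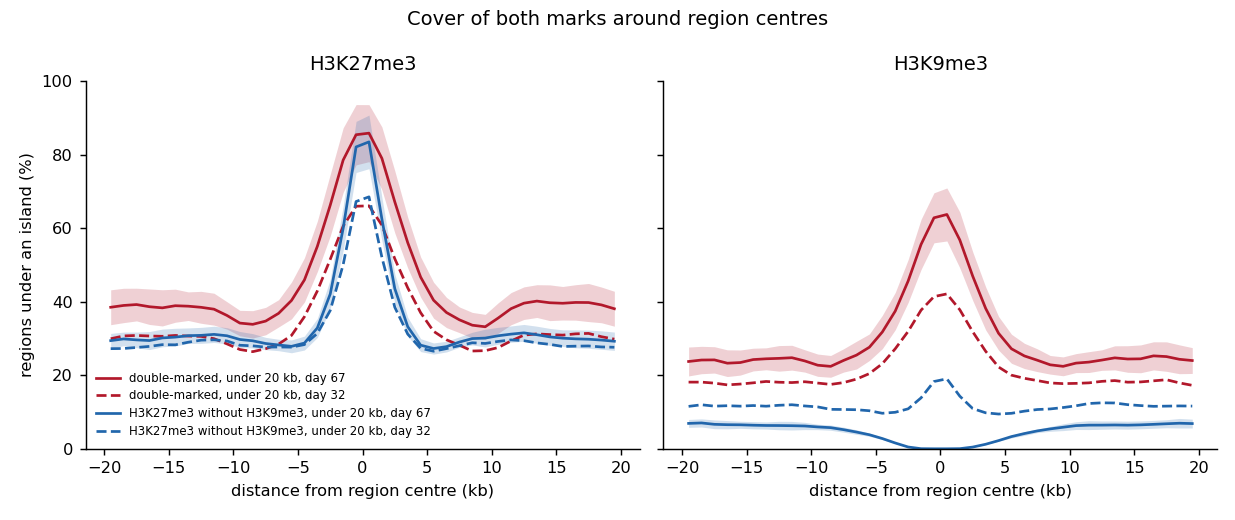
Share of regions lying under an island at each distance from the region's centre (in kb, bins of 1 kb), for H3K27me3 (left) and H3K9me3 (right). Solid lines are the mean of the 4 P67 libraries with the SD as a band, dashed lines are the P32 library, red is double-marked regions and blue is short H3K27me3 regions without H3K9me3 at day 67. H3K9me3 lay over 63.3% of double-marked centres at P67 and 41.8% in P32, and over 18.7% of the blue centres in P32, where the rule sets the P67 value to 0.

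The profile around the region centres shows both marks falling away on either side. For H3K27me3 the fall is set by construction, since a merged region ends where no P67 library has an island. At the centre H3K27me3 lay over 85.6% of double-marked regions in P67, and 9.5 kb away over 33.2%, its lowest value. On that side it rose again to 40.2% at 13.5 kb. H3K9me3 lay over 63.3% at the centre and over 23.9% at the outermost bins, 20 kb away. Around the short regions without H3K9me3, H3K9me3 reached 6.88% at the same distance and H3K27me3 reached 29.3%, against 38.3% around double-marked regions. The surroundings of double-marked regions thus held more of both marks. The groups were chosen by H3K9me3 at their centres, so these flanking values are given without a test.

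Read density was close between the P67 libraries of a mark and lower in P32. Reads per kb of region, scaled to the sum of island reads in that library (CPM per kb), had medians for H3K27me3 of 5.16 and 5.23 in Tutored, 5.35 and 5.17 in Isolate and 4.38 in P32. For H3K9me3 the medians were 6.83 and 6.37 in Tutored, 6.85 and 6.82 in Isolate, and 3.22 in P32. Both medians were lower in the P32 library than in every P67 library, where a region without an island counts as 0. Choosing regions by islands in all 4 P67 libraries favours such a result. Over all 14211 H3K27me3 regions, chosen without regard to H3K9me3, H3K9me3 was called at 48.2% in P32 and at a mean of 45.4% in P67. Single regions spread far wider than libraries did. The 5th and 95th percentiles of the P67 mean were 2.53 and 16.9 CPM per kb for H3K27me3 and 2.69 and 17.6 for H3K9me3, and the highest values were 52.0 and 205.

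A few regions show the range. Reads given for a double-marked region, here and below, are those of whole islands that touch it, including parts past its edges. In the coordinates of the files, counted from 1 on a build that no label names, the region with the most H3K9me3 per kb was chromosome 5 at 57246601 to 57248000, 1.4 kb long. Its H3K9me3 islands held 388 and 719 reads in Tutored, 514 and 570 in Isolate and 615 in P32. With reads shared out by the bases inside the region, its density was 205 ± 24.3 CPM per kb in P67 (SD, n = 4) and 160 in P32. The next, on chromosome 9 at 16800401 to 16819000, was 18.6 kb long. Its H3K9me3 islands held 5407 and 7123 reads in Tutored, 5928 and 5551 in Isolate and 6861 in P32. This region also carried H3K4me3 in every library, with 97 and 309 reads in Tutored, 81 and 321 in Isolate and 155 in P32. The third was a region of 0.6 kb on chromosome 20 at 9145601 to 9146200, at 142 ± 24.3 CPM per kb. All 3 stood more than 10 times above the median region, and none stood apart in H3K27me3 to the same degree.

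Among regions of at least 10 kb, the marks coincided most on chromosome 2 at 49937801 to 49948400, where 98.1% of the region lay under both in each P67 library. H3K27me3 covered 10.6 and 10.4 kb of its 10.6 kb in Tutored and 10.6 kb in both Isolate libraries, and H3K9me3 covered 10.4 kb in all 4. In P32 both marks covered all of it. The next were chromosome 13 at 16752401 to 16762400, at 96.5% ± 3.00, and chromosome 10 at 3653201 to 3666000, at 96.5% ± 6.03. These were chosen for shared cover, which by itself favours a contrast with other regions. H3K9me3 covered less of 3 double-marked regions among those tied as longest, at 19.8 kb. Regions of that length differed, and on the 2 on Z named below H3K9me3 covered a mean of 23.0% and 64.4% in P67. On chromosome 1 at 90558801 to 90578600, H3K9me3 covered 11.4 and 6.00 kb in Tutored, 8.80 and 8.60 kb in Isolate and 5.00 kb in P32. On chromosome 15 at 10208801 to 10228600 it covered 6.80 and 12.8 kb in Tutored, 6.00 and 11.6 kb in Isolate and 17.6 kb in P32. On chromosome 19 at 5518801 to 5538600 it covered 3.20 and 10.4 kb in Tutored, 5.20 and 5.20 kb in Isolate and 14.6 kb in P32. On chromosomes 15 and 19 the P32 library had the widest H3K9me3 cover of the 5, and on chromosome 1 the narrowest.

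In shared cover, the limit of 20 kb cut through a continuous series. Just inside it, the 19.8 kb regions on chromosome Z at 9161601 to 9181400 and at 67866001 to 67885800 lay under both marks for 23.0% ± 9.84 and 62.4% ± 23.7 of their length. Just outside it, the 20 kb regions on chromosome 1 at 41555601 to 41575600 and at 71151601 to 71171600 stood at 45.0% ± 8.21 and 43.5% ± 26.7. The median share under both marks was 33.3% in the 90 regions from 19 to 20 kb and 34.6% in the 105 from 20 to 21 kb. H3K9me3 was present in P32 at 80% and 70.5% of them in that order. Of all H3K27me3 regions of 20 kb or more, 70.7% had H3K9me3 in all 4 P67 libraries, against 24.8% of those under 20 kb. An overlap of 1 bp counted, which favours longer regions.

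Double-marked regions lay on 33 of the 35 chromosomes in the lists. Large autosomes (at least 50 Mb) held 1670 of them (52.5%), middle chromosomes 714, small ones (under 20 Mb) 508, and Z 286. Among chromosomes with at least 20 of them, they made up the largest share of short H3K27me3 regions on Z, 286 of 601 (47.6%), against 33.3% on chromosome 2 and 8.75% on chromosome 12. Per Mb, their number was 2.81 on large autosomes, 3.31 and 3.65 on middle and small chromosomes and 3.93 on Z, while single chromosomes of at least 10 Mb ran from 1.21 to 4.47. Short regions without H3K9me3 rose from 3.31 to 7.13 and 11.05 per Mb along the same series and fell to 1.41 on Z. The chromosome classes thus differed more in the number of short regions without H3K9me3 than in the number of double-marked ones. Short H3K9me3 regions without H3K27me3 stood at 8.72 per Mb on Z and 2.88 on large autosomes. A high number on Z was thus not particular to double-marked regions. Each chromosome is 1 value here and no test was made.

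**Figure D2:**
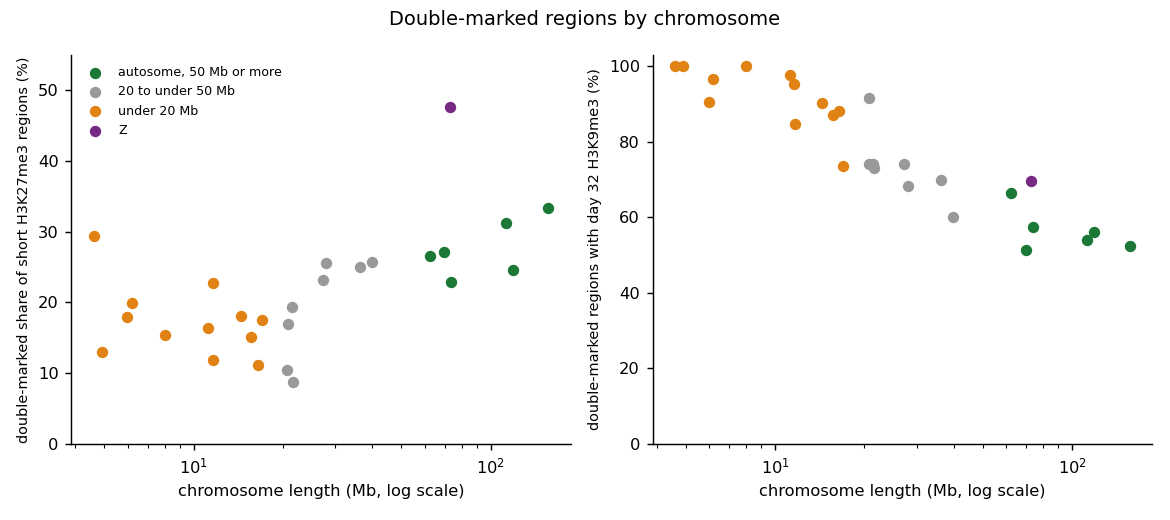
Each point is a chromosome with at least 20 double-marked regions, placed by its length on a log axis in Mb. The left panel gives the double-marked share of short H3K27me3 regions, where Z stands highest at 47.6%, and the right panel the share of double-marked regions with an H3K9me3 island in P32, which was highest on small chromosomes (91.3% over all of them). Short regions without H3K9me3 at P67, not plotted, were also highest there, at 47.8%.

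The regions were clustered, as other short H3K27me3 regions were. The nearest double-marked neighbour lay at a median of 15.6 kb, and for short regions without H3K9me3 the nearest of their own kind lay at 15.8 kb. Runs with gaps under 20 kb took in 1725 double-marked regions (54.3%) in 615 runs. The largest run, on chromosome 2 at 155579801 to 155758800, held 16 regions in 179 kb, of which all 16 had H3K27me3 and 15 had H3K9me3 in P32. The densest window of 1 Mb, on chromosome 3 from 110000001 to 111000000, held 31 double-marked regions among its 41 short H3K27me3 regions. Of these 31, 23 had H3K27me3 and 15 had H3K9me3 in P32. Long Polycomb domains were nearer to double-marked regions than to the others. The nearest H3K27me3 region of 20 kb or more lay at a median of 95.8 kb, and within 20 kb for 25.7% of them, against 234 kb and 12.8% for short regions without H3K9me3. Neighbouring regions are not independent, so these distances have no test.

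H3K4me3, which marks promoters, and Pol II were not used to choose the regions. The deposited names of the replicate 1 files for H3K4me3 carry the letter of the other group, and those for Pol II another replicate number, and groups follow the sample titles. An H3K4me3 island was present at 10.5% and 11.9% of double-marked regions in Tutored, 10.2% and 12.4% in Isolate, and 13.03% in P32. The mean of 11.3% over the P67 libraries compares with 21.1% for short H3K27me3 regions without H3K9me3. The difference was -9.81 ± 0.665 percentage points (SD, n = 4) and had the same sign in 4 of 4 libraries, with a two-sided exact permutation p of 0.125, the smallest that 4 libraries allow. It held in each length class, at -8.56 points under 5 kb, -15.1 from 5 to 10 kb and -14.1 from 10 to 20 kb. Double-marked regions thus carried H3K4me3 less often than their counterparts in every library. Isolate and Tutored means were 11.3% and 11.2%, with an exact permutation p of 1. With the replicate 1 groups exchanged, an alternative chosen after seeing the data, they were 11.5% and 11.03% (exact permutation p = 0.667), while the shares over all 4 libraries stay as they are.

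Pol II was present at 5.98% and 3.87% of double-marked regions in Tutored, 7.77% and 11.2% in Isolate, and 1.57% in P32. Both Isolate libraries lay above both Tutored libraries, by 4.58 percentage points on average. The exact permutation p was 0.333, the smallest that 2 libraries against 2 allow, and the short regions without H3K9me3 moved with it, at a mean of 8.72% in Tutored and 14.1% in Isolate. The Tutored lists held 18311 and 8589 Pol II islands and the Isolate lists 19656 and 15198, so that Isolate replicate 2 had the highest share with fewer islands than Tutored replicate 1. The part of list length in the result was not tested. Against short regions without H3K9me3, double-marked regions had Pol II less often by 4.22 points (7.21% against 11.4%) in 4 of 4 libraries (exact permutation p = 0.125). In regions under 5 kb the difference was -0.763 points, with 2 of 4 libraries lower and an exact permutation p of 0.5. Over all lengths the difference was -2.39 points without Isolate replicate 1, left out of the rule and the comparison alike, and -0.290 points without both replicate 1 libraries, so its size rested on replicate 1.

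**Figure D3:**
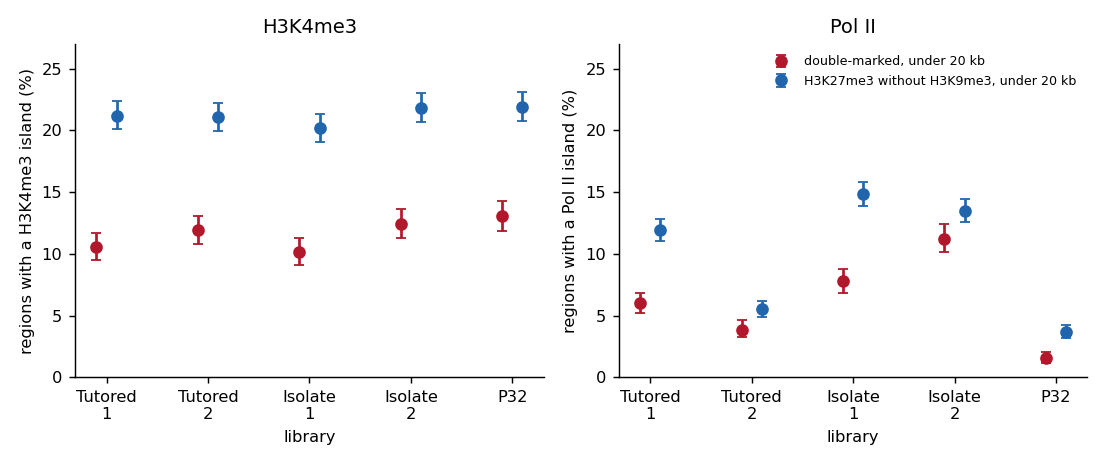
Share of regions with an H3K4me3 island (left) and a Pol II island (right) in each of the 5 libraries, for double-marked regions (red) and short H3K27me3 regions without H3K9me3 (blue), with exact 95% binomial intervals that cover counting error only. For H3K4me3 the red points lie between 10.2% and 13.03% and the blue ones between 20.2% and 21.9%, and for Pol II the red points lie below the blue ones in each library, with both lowest in P32.

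In most double-marked regions neither mark was seen. In 2517 (79.2%) no P67 library had H3K4me3 or Pol II, against 68.0% of short regions without H3K9me3. H3K4me3 was present in all 4 P67 libraries at 264 regions (8.31%), Pol II at 63 (1.98%), and both at 43. Without Tutored replicate 2, the shortest Pol II list, the Pol II share was 3.71%, without both replicate 1 libraries it was 2.72%, and without both replicate 2 libraries 4.86%. In the 264, the H3K4me3-covered windows lay under H3K27me3 for 94.4% ± 1.79 of their number and under H3K9me3 for 57.1% ± 3.72 (SD, n = 4 libraries). H3K9me3 covered 46.6% ± 2.45 of these regions as a whole, and its islands thus reached over H3K4me3 windows. The longest double-marked regions with H3K4me3 and Pol II in all 4 P67 libraries were the one on chromosome 19 named above, chromosome 28 at 2823201 to 2842800, and chromosome 9 at 19339001 to 19358600. On chromosome 28, H3K4me3 held 854 and 3031 reads in Tutored, 1411 and 2971 in Isolate and 2147 in P32. On chromosome 9 it held 1022 and 3053 reads in Tutored, 974 and 3228 in Isolate and 958 in P32. In both, replicate 2 libraries were the high ones among P67, as they were in H3K4me3 reads inside islands (10840161 and 11303863 against 4291767 and 4286003).

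The P32 libraries took no part in the choice of regions, and they show which of the regions were also double-marked in P32. Since every P67 library had to carry both marks, the P32 shares could only lie level or lower. H3K27me3 was called at 2594 of the 3178 regions (81.6%, exact 95% interval 80.2 to 82.96%) and H3K9me3 at 2087 (65.7%, 64.0 to 67.3%). Both were present at 1901 (59.8%), H3K27me3 alone at 693 (21.8%), H3K9me3 alone at 186 (5.85%) and neither at 398 (12.5%). Short regions without H3K9me3 at P67 had H3K27me3 in P32 about as often, at 83.5%, and had H3K9me3 in P32 at 32.9%. Short regions with H3K9me3 in 1 to 3 P67 libraries lay between, at 43.5%. Short H3K9me3 regions without any H3K27me3 at P67, of which there were 2645, had H3K9me3 in P32 at 57.8%. With 1 library at day 32 there is no spread to test these shares against, a region not called is of unknown rather than zero level, and the intervals cover counting error only.

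The gap between double-marked regions and short regions without H3K9me3 was present within each class of length. H3K9me3 was present in P32 at 64.5% of double-marked regions under 5 kb, 63.2% of those from 5 to 10 kb and 68.2% of those from 10 to 20 kb. In short regions without H3K9me3 the same classes stood at 28.7%, 33.5% and 43.6%. Short H3K9me3 regions without H3K27me3 stood at 54.6%, 57.2% and 77.4%, and so above double-marked regions from 10 to 20 kb. Where a mark was present in P32, it covered nearly as much of the region as in P67, a median of 80.5% against 84.1% for H3K27me3 and 56.5% against 57.7% for H3K9me3. In read density (CPM per kb), single regions moved both ways. H3K9me3 density in P32 lay below all 4 P67 libraries in 916 of the 2087 regions (43.9%) and above all 4 in 529 (25.3%). H3K27me3 density lay below in 916 of 2594 (35.3%) and above in 525 (20.2%). The same counts were not made over all regions, so they do not tell whether double-marked regions differed from others. Choosing regions by islands in all 4 P67 libraries favours lower P32 values.

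The presence of H3K9me3 at day 32 followed the strength of H3K27me3 at day 67. Regions were split into 4 bands of equal number by their mean P67 density of H3K27me3. From the lowest to the highest band, H3K27me3 was present in P32 at 48.9%, 80.4%, 97.4% and 99.9%. H3K9me3 was present in P32 at 45.5% of the lowest band (exact 95% interval 42.0 to 49.1%), 51.3% and 72.3% of the next, and 93.6% of the highest (91.7 to 95.2%). Short regions without H3K9me3, placed in the same bands of density, had H3K9me3 in P32 at 15.9%, 27.1%, 40.4% and 54.7%. Both series rose, and the double-marked regions lay above the others in every band. Split instead by their P67 density of H3K9me3, double-marked regions had H3K9me3 in P32 at 51.6%, 58.2%, 65.0% and 87.9%. The highest band by H3K27me3 also held more small-chromosome regions (32.1% against 3.65% in the lowest band) and more regions with H3K4me3 in all 4 libraries (23.0% against 0.629%).

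**Figure D4:**
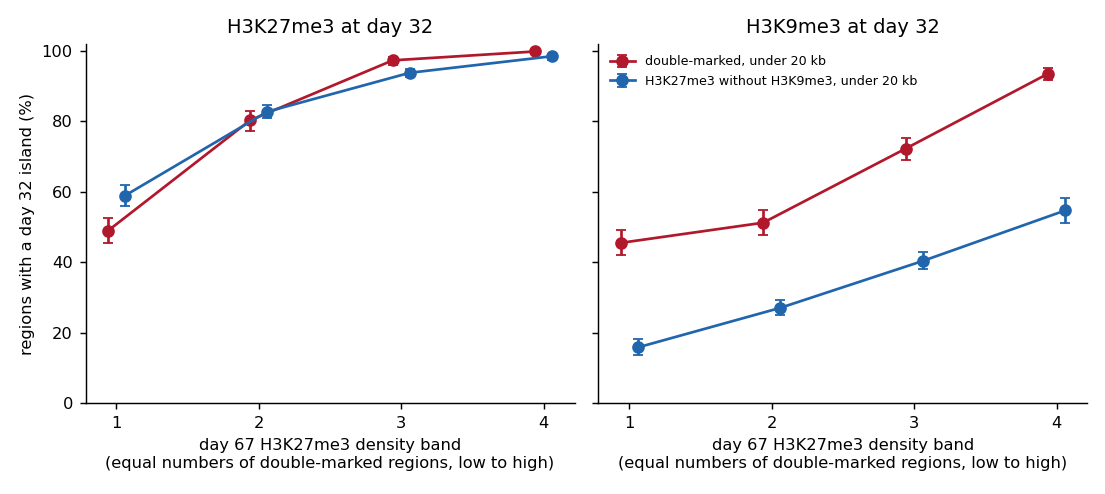
Share of regions with an H3K27me3 (left) or H3K9me3 (right) island in the P32 library, by band of P67 H3K27me3 density. Bands hold equal numbers of double-marked regions (red) and are applied also to short H3K27me3 regions without H3K9me3 (blue), with exact 95% binomial intervals that cover counting error only. H3K9me3 rises from 45.5% to 93.6% in red and from 15.9% to 54.7% in blue.

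The same held by chromosome. H3K9me3 was present in P32 at 55.3% of double-marked regions on large autosomes, 70.2% on middle and 91.3% on small chromosomes, and 69.6% on Z. H3K27me3 was present at 75.6%, 90.5%, 98.2% and 65.4% in that order. The rise in H3K9me3 from large to small chromosomes was not particular to double-marked regions. Short H3K9me3 regions without H3K27me3 had H3K9me3 in P32 at 49.5%, 77.4%, 88.97% and 68.03% in the same order of classes. Short H3K27me3 regions without H3K9me3 at P67 stood at 23.5%, 30.1%, 47.8% and 31.1%. Z was the class in which more double-marked regions had H3K9me3 than H3K27me3 in P32. Within the lowest band of H3K27me3 density the H3K9me3 shares were 39.5% on large autosomes (211 of 534), 86.2% on small chromosomes (25 of 29) and 60.5% on Z (78 of 129). In the highest band they were 91.4%, 96.9% and 100% (28 of 28). Middle chromosomes stood at 46.6% in the lowest band and 91.8% in the highest, nearer to large autosomes than to small chromosomes. On small chromosomes the bands between held 82.4% and 87.3%, so the share there rose only in the highest band. Presence at day 32 thus rose with density over the bands outside small chromosomes. In the lowest band it was highest on small chromosomes, then on Z. Of the 264 regions with H3K4me3 in all 4 P67 libraries, 97.0% had H3K9me3 in P32, as did all 63 with Pol II in all 4, and 58.7% of the 2517 with neither in any. Short regions without H3K9me3 at P67 had the same order. Their shares were 67.9% with H3K4me3 in all 4, 83.2% with Pol II in all 4 and 19.8% with neither in any.

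Read counts were compared between P32 and the P67 libraries where a region had an island in all 5, with edgeR's quasi-likelihood test and Benjamini-Hochberg adjustment over all regions tested. For both marks, regions with no P32 island were not tested. The counts and medians below thus leave out every region whose mark was called only at P67. For H3K27me3, 2594 of the 3178 double-marked regions remained. For H3K27me3, 0 of 11902 regions passed an adjusted p of 0.05 in either direction (0% called), and so 0 of the 2594 double-marked regions tested, of which 294 (11.3%) had an unadjusted p under 0.05, as did 1082 (9.09%) of all regions. The median log2 change of the double-marked regions was -0.07, with 0.00 over all regions tested. DESeq2 called 250 regions (2.1%), of which 241 were lower in P32. Of the 250, 68 were double-marked (2.62% of those tested), and all 68 were lower in P32. The smallest p-values belonged to regions that were lower in P32. On chromosome 5 at 46581401 to 46591800, reads numbered 325 and 392 in Tutored, 277 and 423 in Isolate and 46 in P32, a log2 change of -2.68 (SE 0.35, edgeR adjusted p = 0.495). H3K9me3, at 96 and 82 reads in Tutored and 51 and 105 in Isolate, had no island there in P32. On chromosome 5 at 10256601 to 10269600 the log2 change was -2.40, and on chromosome 3 at 53204001 to 53215200 it was -2.63, with the same edgeR adjusted p. H3K9me3 had no P32 island at these either. In all 3 regions every P67 library lay above P32 in H3K27me3, and DESeq2 called all 3. Choosing regions by p-value in the same counts favours both. The P32 group is 1 library, assumed to vary like the others.

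For H3K9me3, regions were built from its own islands. Of 8975 H3K9me3 regions with an island in all 4 P67 libraries, 3185 overlapped a double-marked region, and these lay at 3033 double-marked regions. Of 5442 regions with an island in all 5 libraries, edgeR called 1 higher in P32 (0.0184%) and 1 lower (0.0184%), and the higher one was among the 2026 at double-marked regions. An unadjusted p under 0.05 was found for 551 of the 2026 (27.2%) and 1252 of all 5442 (23%). The region called higher lay on chromosome 9 at 16808201 to 16816600, with 108 and 172 reads in Tutored, 134 and 145 in Isolate and an estimated 1770 in P32 (log2 change 3.78, SE 0.21, edgeR adjusted p = 0.00493). The P32 island there ran past the region's edges, and its reads were shared out by length. Over the whole double-marked region that contains it, described above for its H3K9me3, P32 lay within the range of the P67 libraries. Without regions whose P32 island ran past an edge, an alternative chosen after seeing the data, edgeR called 0 at double-marked regions (331 of 1245 at an unadjusted p under 0.05, or 26.6%, against 22.6% over all regions).

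The number of H3K9me3 calls between P32 and P67 depended on the fit, and in each fit below calls at double-marked regions went both ways. In the main fit the median log2 change at the 2026 H3K9me3 regions was 0.02 (quartiles -0.595 and 0.653), with -0.03 over all regions tested. At double-marked regions edgeR called 26 with RLE size factors (1.28%, with 1.36% over all regions), and DESeq2 called 177 (8.74%, with 7.64% over all). With 1 P67 library left out, edgeR called 89 without Tutored replicate 1 (4.39%, with 4.06% over all) and 91 without Tutored replicate 2 (4.49%, with 4.19%). It called 73 without Isolate replicate 1 (3.6%, with 3.53%) and 144 without Isolate replicate 2 (7.11%, with 6.14%). These shares lay near those over all regions. The other 2 regions with the smallest p-values passed in those fits and missed the threshold with TMM factors and all libraries. The H3K9me3 region on chromosome Z at 37820201 to 37842600 held 306 and 357 reads in Tutored, 363 and 348 in Isolate and an estimated 41 in P32 (log2 change -2.97, SE 0.39, edgeR adjusted p = 0.061). This value rests on sharing out the reads of a P32 island that ran past the edge, and with whole P32 islands it was -1.06 (edgeR adjusted p = 0.106). The double-marked region inside it, at 37826601 to 37835400, had no H3K9me3 island in P32, while its H3K27me3 reads were 212 and 247 in Tutored, 222 and 241 in Isolate and 152 in P32. The region on chromosome 1A at 3830001 to 3861400 had a log2 change of -2.99 (edgeR adjusted p = 0.061). The double-marked region there lay at 3829401 to 3844000. The whole H3K9me3 islands that touch it held 356 and 319 reads in Tutored, 258 and 247 in Isolate and 59 in P32. Its H3K27me3 islands held 406 and 548, 347 and 648, and 421. At both, H3K27me3 was called at day 32 with little or no H3K9me3.

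Isolate and Tutored were compared at day 67 to ask whether rearing without an adult male went with another level of either mark. No double-marked region passed the test. For H3K27me3, edgeR's quasi-likelihood test called 0 of 14211 regions (0% called), with 21 of the 3178 double-marked regions (0.661%) and 99 of all regions (0.697%) at an unadjusted p under 0.05, and DESeq2 called 0. For H3K9me3 it called 0 of 8975 regions (0% called), with 49 of the 3185 at double-marked regions (1.54%) and 129 of all (1.44%) at an unadjusted p under 0.05, and DESeq2 called 0. The median log2 change at double-marked regions was 0.01 for H3K27me3 and -0.01 for H3K9me3. In simulated data with 2 libraries a group, changes of 4-fold were found in 67% of regions for H3K27me3 and 73% for H3K9me3. Changes of 2-fold were found in 3% and 10%, and 6 and 5 unchanged regions were called. The simulated libraries were drawn independently with a common dispersion. In the data, deviations of same-numbered libraries correlated, so the shares that would be found there may differ.

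Groups that did not overlap were about as frequent at double-marked regions as elsewhere. Both Isolate libraries lay above both Tutored libraries in H3K27me3 at 296 double-marked regions (9.31%, with 8.8% over all 14211 regions) and below at 222 (6.99%, with 7.82% over all). For H3K9me3 the counts were 476 (14.9%, with 14.7% over all 8975) and 277 (8.70%, with 8.56% over all). The Isolate minus Tutored difference of replicate 1 did not go with that of replicate 2 across the 3178 regions (Pearson's r 0.0078 for H3K27me3 and -0.001 for H3K9me3, across regions, which are not independent replicates).

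The smallest p-values for H3K27me3 belonged to the following regions, which are examples and not calls. On chromosome 1A at 3947801 to 3959600, H3K27me3 held 262 and 361 reads in Tutored and 81 and 106 in Isolate, with no island in P32 (log2 change -1.66, SE 0.33, edgeR adjusted p = 1.00). Its H3K9me3 did not follow, with 189 and 104 reads in Tutored and 207 and 122 in Isolate. On chromosome 1 at 70765201 to 70774600, H3K27me3 held 82 and 79 reads in Tutored and 238 and 210 in Isolate, with no island of either mark in P32. On chromosome 28 at 1915201 to 1923000 it held 214 and 255 in Tutored, 86 and 93 in Isolate and 104 in P32. In each of the 3 the groups did not overlap, which choosing by p-value favours. Islands also covered more of the region in the group with more reads. Reads were counted only inside islands, so cover and reads are not independent.

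For H3K9me3, the smallest p-values fell on chromosome 3 at 2475401 to 2484000, with 126 and 108 reads in Tutored and 31 and 45 in Isolate and no island in P32, and at 8417401 to 8423600, with 101 and 130 in Tutored, 38 and 46 in Isolate and 48 in P32. The third, on chromosome 12 at 4703801 to 4719000, held 128 and 400 in Tutored, 51 and 82 in Isolate and 725 in P32. All 3 were lower in Isolate. At the double-marked region on chromosome 12, H3K27me3 was high in every library, at 1515 and 2933 reads in Tutored, 1298 and 2820 in Isolate and 2534 in P32. Pol II was also present there in all 4 P67 libraries, with 584 and 1205 reads in Tutored and 698 and 1367 in Isolate, and absent from the P32 list.

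**Figure D5:**
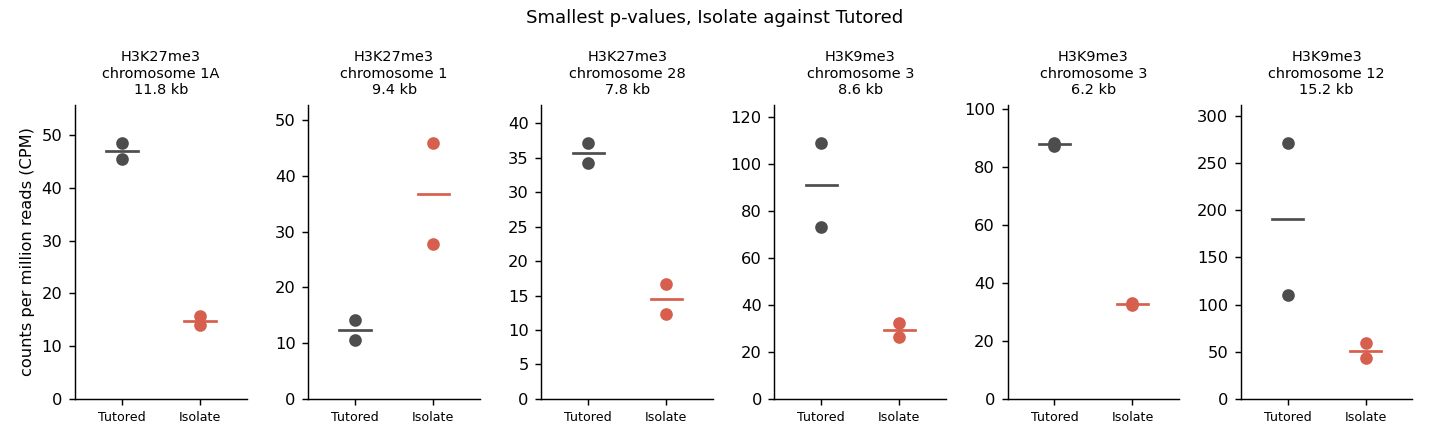
Scaled read counts (CPM) of each Tutored (grey) and Isolate (red) library at the 3 double-marked H3K27me3 regions and the 3 H3K9me3 regions with the smallest p-values, bars being group means of 2 libraries. The groups do not overlap in any of the 6, which choosing by p-value favours. In 5 of them Isolate is lower, and no adjusted p passed 0.05.

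The replicate 2 lists of both marks also give the reads of the input DNA in each island. Islands at double-marked regions held 14.9 (Tutored) and 14.6 (Isolate) input reads per kb in the H3K27me3 lists, against 15.4 and 15.0 in islands elsewhere. In the H3K9me3 lists they held 15.7 and 15.4, against 14.8 and 14.4. The mean ratio of islands at double-marked regions to islands elsewhere was 0.972 for H3K27me3 and 1.07 for H3K9me3. The median fold over input in the authors' deposited table was 2.43 and 2.38 for H3K27me3 islands at double-marked regions, against 2.35 and 2.32 elsewhere. For H3K9me3 islands the authors' deposited table gives 2.82 and 2.70, against 3.00 and 2.87. Genes at these regions were not named, because no annotation of the files' genome build was used here.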

How the data were processed

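Libraries were made from fixed, sonicated auditory forebrain, per the labels' protocols. Tools named by the submitters' processing notes are SICER 1.1, MACS and BWA 0.6.1. No label or header names the genome build. The deposited file names give windows of 200 bp, gaps of 200 bp (H3K4me3) or 600 bp, and a false discovery rate of 1e-05. The authors deposited, for each library, islands with counts of reads. In 6 replicate 2 lists they also deposited input counts, a p-value, a q-value and a fold over input (a ratio). Total depth is not given.

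Islands were merged with Python 3.11.15. An overlap of 1 bp counted as present. CPM (counts scaled to a total of 1e6) takes the island reads of a library as its total, except in the count tests, where it uses the reads in the tested regions. Region counts went into edgeR 4.0.16 under R 4.3.3 (robust quasi-likelihood test, TMM), with p-values adjusted over all regions, with DESeq2 1.42.0, RLE factors, a minimum mean of 50 reads, a replicate block and left-out libraries as alternatives. P32 islands were shared out to P67 regions by the bases inside, a choice made after seeing that whole islands ran past the edges. The inputs of day 67 are labelled as pools by replicate number, so same-numbered libraries may be paired. The main fits had no replicate block, and the blocked fit was an alternative. Deviations of same-numbered libraries correlated at r = 0.613 for H3K27me3 and 0.426 for H3K9me3 across regions. The fits were run on simulated counts of independently drawn libraries (100 changed regions per fold). Named regions were 3 of those tied as longest, the 3 most under both marks and the 3 with the most H3K9me3 per kb. Also named were the 3 longest with H3K4me3 and Pol II and the 3 smallest p-values of each fit. Regions beside the length limit and the densest window were named too. The largest run was added after its value was seen. The members, the lists and the comparisons were chosen with earlier results of these data known. The 3 input samples were not analysed here as libraries. Binomial intervals are exact (Clopper-Pearson) and cover counting error only.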

Additional observations from a re-analysis of the deposited data

Results flagged for a closer look

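The median H3K9me3 density of double-marked regions stood apart in Tutored replicate 2, at 6.37 CPM per kb against 6.83 in Tutored replicate 1 and 6.85 and 6.82 in Isolate. The gap was large beside the range of the 4 libraries, although the value differs from the others by under 10%. Of 9 sets of 4 libraries examined in this way, 1 was flagged, and chance flags about 1 in 20.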

How the results depend on the processing

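The regions are defined by calls in every library, so their number and day 32 shares moved with that rule. Requiring H3K9me3 over at least 50% of the region left 959 regions, with H3K27me3 in P32 at 84.9%, H3K9me3 in P32 at 79.9%, H3K4me3 in all 4 at 6.47%, a shared part of 72.3%, 10.3% on Z, and a ratio of input reads to islands elsewhere of 1.04 in the H3K27me3 lists. A limit of 10 kb left 1725, with shares of 76.2%, 63.5%, 5.28% (H3K4me3) and 1.28% (Pol II), and input ratios of 0.962 and 1.02. Merging islands within 1000 bp gave H3K27me3 in P32 at 80.0%. Leaving out 1 library or 1 replicate number, which loosens the rule by construction, gave 3638 to 6290 regions. H3K27me3 in P32 then ran from 73.7 to 80.95%, H3K9me3 in P32 from 56.6 to 64.1%, H3K4me3 in all remaining libraries from 7.89 to 9.41%, Pol II from 1.99 to 4.86%, and the shared part from 47.9 to 58.6%. Input ratios ran from 0.943 to 0.984 (H3K27me3) and 1.05 to 1.08 (H3K9me3). The difference from short regions without H3K9me3 ran from -10.1 to -6.16 points for H3K4me3 and from -5.56 to -0.290 for Pol II, the last without replicate 1. The order of day 32 shares by H3K27me3 density and by chromosome class remained in every one of these settings for the pairs compared (lowest against highest band, large against small chromosomes).

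For P32 against P67, H3K27me3 calls were 250 with DESeq2 (68 at double-marked regions) and 35 with whole P32 islands (7). H3K9me3 calls were 74 with RLE factors (26), 416 with DESeq2 (177), 419 with whole P32 islands (162), 5 with regions merged over all 5 libraries (1), 1 without regions whose P32 island ran past an edge (0), and 192 to 334 with 1 library left out (73 to 144). Whole P32 islands, regions merged over all 5 libraries and the removal of regions with a P32 island past an edge were alternatives added after seeing the data. The H3K27me3 calls at double-marked regions were all lower in P32 with DESeq2 and all higher with whole P32 islands, so their direction depended on the setting. With whole P32 islands the share called at double-marked regions was 0.27% for H3K27me3, with 0.294% over all regions. For H3K9me3 it was 8%, with 7.7% over all. The cause of the spread between tools was not tested. The region on chromosome Z had a log2 change of -1.06 with whole P32 islands.

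With the replicate block, Isolate against Tutored gave 0 calls for both marks, and changed no call. An unadjusted p under 0.05 was then found at 164 double-marked regions for H3K27me3 (5.16%, with 4.85% over all regions) and 154 for H3K9me3 (4.84%, with 5% over all). Uncalled regions have no reads in the lists, so low levels of either mark are beyond what these data resolve.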

Other observations

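The 4503 short H3K27me3 regions with H3K9me3 in 1 to 3 P67 libraries show how the H3K9me3 lists fell together. H3K9me3 was present in both replicate 2 libraries alone at 433 of them and in both replicate 1 libraries alone at 324. It was present in both Tutored libraries alone at 195 and in both Isolate libraries alone at 156. Pairs across group and number had 184 (Tutored replicate 2, Isolate replicate 1) and 126 (Tutored replicate 1, Isolate replicate 2). Libraries of 1 replicate number thus shared more of these regions than libraries of 1 group did.

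Across the 3178 double-marked regions, log2 densities of the marks went together more in replicate 2, with Pearson's r of 0.52 in Tutored and 0.41 in Isolate, than in replicate 1, with 0.21 and 0.17. Across the 1901 regions with both marks in P32, the log2 difference of P32 from the P67 mean in H3K27me3 and in H3K9me3 had an r of 0.52. Regions of a library share that library and are not independent, so these are descriptions.

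Of the double-marked regions on chromosomes of at least 10 Mb, 12.1% lay within 2 Mb of a chromosome's end, and of short regions without H3K9me3 16.4% did.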
